A study of Bos taurus with 12 samples.

Results

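A group of 10 genes of the immunoproteasome and of the loading of peptides on class I molecules was followed in the liver of newborn Holstein heifer calves. They were chosen by symbol (PSMB8, PSMB9, PSMB10, PSME1, PSME2, TAP1, TAP2, TAPBP, B2M and NLRC5) and matched to the gene IDs of the counts through the bovine RefSeq gene table, which found 10 of 10 among 30336 gene IDs. Liver was sampled by puncture biopsy at 4 d of age. The 6 calves of the control group (CON) were born to cows on a close-up diet without added Met, and the 6 calves of the MET group to cows given the same diet with rumen-protected Met in an ethyl cellulose coat for about the last 28 d before calving. The 2 groups were fed and managed alike after birth, and the labels give 1 library of stranded polyadenylated RNA per calf.

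The proteasome is the protease that cuts ubiquitin-tagged proteins into peptides. When cells sense interferon, the 3 catalytic subunits of its core are replaced in new particles by PSMB8, PSMB9 and PSMB10, and the PSME1 and PSME2 proteins cap the core as the PA28 activator. The resulting peptides pass through the TAP1 and TAP2 transporter into the endoplasmic reticulum, where tapasin (TAPBP) helps to load them on class I heavy chains paired with beta-2-microglobulin (B2M), and NLRC5 is the main transcriptional activator of this gene group. Hepatocytes make these proteins at a low level, and Kupffer cells, the macrophages of the liver, and other leukocytes make more of them. In tissue RNA, more cells of a type and more RNA per cell cannot be told apart.

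The libraries held between 8277789 and 10397604 counted reads. Within 2 pairs of libraries, CON replicates 1 with 4 and MET replicates 1 with 3, the counts were nearly those of 1 library read again, and either pair entered the means once. Means ± SD are therefore over 5 samples per diet, in counts scaled to a common total after TMM normalization (CPM). Tests of the 10 genes and of PSMB5, PSMB6, PSMB7 and PSME3 are given over the 12 libraries and over the 10 samples. Values of other genes are over the 12 libraries unless stated. Nothing in the labels separates the diets from the first sequencing index, which was one sequence in the 6 CON libraries and another in the 6 MET libraries, and the effects of the index and of the diet cannot be told apart. Over the 12 libraries, edgeR's quasi-likelihood test called 4.41% of the 13212 genes tested at a false discovery rate (FDR) of at most 0.10, and 2.09% as more abundant in MET. Over the 10 samples it called 0%, with 16.3% of genes at an unadjusted p of at most 0.05, whereas DESeq2 called 5.71% of the 11187 genes to which it gave an adjusted p over the same 10 samples, 2.74% as more abundant in MET.

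Of the 10 genes, 5 lie on chromosome 23 of the assembly UMD 3.1.1, in the bovine major histocompatibility complex. TAP2 (chr23:7079668-7086845), PSMB8 (chr23:7113298-7117316) and TAP1 (chr23:7117862-7126817) are on the minus strand, PSMB9 (chr23:7126695-7133612) is on the plus strand, and TAPBP (chr23:7415847-7425523, minus strand) is farther along. PSMB8 and TAP1 are 545 bases apart, and the annotated spans of TAP1 and PSMB9 overlap by 123 bases on opposite strands, which stranded counting keeps apart. PSME2 (chr10:20838545-20841805, plus strand) and PSME1 (chr10:20846749-20849410, minus strand) are neighbours on chromosome 10, where B2M (chr10:104124760-104126406, plus strand) also lies. PSMB10 (chr18:35540346-35544013, minus strand) and NLRC5 (chr18:25091696-25185333, plus strand) are on chromosome 18.

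All 10 genes were above the filter on low counts. Per kilobase of exon and over the 10 samples, the order of level was B2M at 1099 ± 399.6 CPM per kb, PSME1 at 132 ± 29.3, PSME2 at 105.6 ± 20.7, TAPBP at 61.6 ± 10.3, PSMB10 at 27.4 ± 7.78, PSMB8 at 26.5 ± 8.02, PSMB9 at 9.88 ± 3.16, TAP1 at 7.25 ± 2.16, TAP2 at 3.66 ± 0.736 and NLRC5 at 1.39 ± 0.494 (SD, n = 10). Each gene was above the next in this order in all 10 samples, except that PSMB10 was above PSMB8 in 5 of 10. Across samples, the ranges of level were apart between B2M and PSME1, between TAPBP and PSMB10, and between PSMB8 and PSMB9, and they overlapped between the other neighbours.

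**Figure D1:**
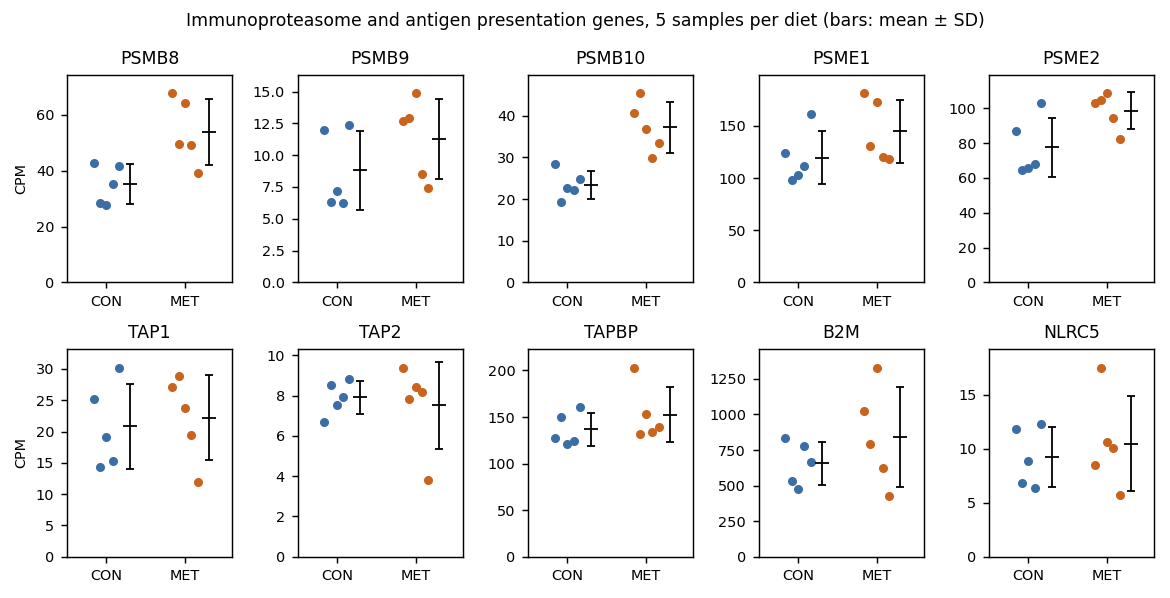
Level of each of the 10 genes in CPM (vertical axes, each from 0) in 5 CON and 5 MET samples (points, a near-identical library pair counted once), with the mean ± SD beside them. The MET points lie wholly above the CON points for PSMB10 alone, and the single low MET point of TAP2 is at 3.81 CPM.

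Of the 10 genes, PSMB8 and PSMB10 were more abundant in MET at an FDR of at most 0.10 over the 12 libraries, against 2.09% of all genes tested in that direction, and 0 of 10 passed over the 10 samples. DESeq2 over the 10 samples again called both PSMB8 and PSMB10 and no other of the 10, against 2.74% of all genes in that direction. At an unadjusted p of at most 0.05, 3 of 10 were more abundant in MET over the 12 libraries and 3 of 10 over the 10 samples, against 10.2% and 7.83% of all genes (20.5% and 16.3% in either direction). All 10 log2 fold changes were above 0 over the 12 libraries, as were 49.6% of all genes, and their median was 0.31, beside -0.003 for all genes. PSMB8 and PSMB10 are also on the study's list of differentially expressed genes, which was drawn from these same libraries, so that their calls are no independent evidence.

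PSMB10 encodes the inducible subunit with trypsin-like activity (MECL-1). In the CON samples it was at 28.4 CPM in the pair of replicates 1 and 4, 19.4 in replicate 2, 22.6 in replicate 3, 22.1 in replicate 5 and 24.7 in replicate 6. In the MET samples it was at 40.7 CPM in the pair of replicates 1 and 3, 45.3 in replicate 2, 36.7 in replicate 4, 29.8 in replicate 5 and 33.5 in replicate 6. All 5 MET samples were thus above all 5 CON samples, which held for 1.94% of the genes tested (3.71% were without overlap in either direction), with the narrowest gap between MET replicate 5 and the CON pair. The mean was 23.4 ± 3.36 CPM in CON and 37.2 ± 6.06 in MET (SD, n = 5), a log2 fold change of 0.64 (SE 0.13, a 1.56-fold level, edgeR FDR 0.0452) over the 12 libraries. Over the 10 samples the log2 fold change was 0.66 (SE 0.14), with an edgeR FDR of 0.156 and a DESeq2 FDR of 0.00672. The exact permutation test on log2 CPM gave p = 0.00794 over the 10 samples, the smallest p that 5 against 5 can give. The call at 12 libraries was kept in all 12 fits that left out 1 library. A fit that left out 1 library of a near-identical pair kept the other, and so left out no separate sample. After removal of a trend on gene length the edgeR FDR was 0.0944 over the 12 libraries and 0.22 over the 10 samples.

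PSMB8 encodes the inducible subunit with chymotrypsin-like activity (LMP7). Its CON values were 42.7 CPM in the pair, 28.5 in replicate 2, 27.8 in replicate 3, 35.3 in replicate 5 and 41.7 in replicate 6. Its MET values were 67.7 CPM in the pair, 49.6 in replicate 2, 64.2 in replicate 4, 49.1 in replicate 5 and 39.2 in replicate 6. The diets overlapped through MET replicate 6, which was below the CON pair and CON replicate 6, and the other 4 MET samples were above all CON samples. The means of 35.2 ± 7.04 CPM in CON and 54.0 ± 11.8 in MET (SD, n = 5) gave a log2 fold change of 0.62 (SE 0.16, edgeR FDR 0.0766) over the 12 libraries. Over the 10 samples it was 0.61 (SE 0.18), with an edgeR FDR of 0.18, a DESeq2 FDR of 0.0539 and an exact permutation p of 0.0238. The edgeR call was less steady than that of PSMB10. It was kept in 4 of the 12 fits with 1 library left out and lost, at FDRs up to 0.131, without any 1 of CON replicates 1 to 5 or of MET replicates 1, 3 and 4, and it was also lost after removal of the trend on gene length (edgeR FDR 0.112 over the 12 libraries).

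PSMB9, the third inducible subunit (LMP2), varied more among the calves of a diet. The CON values were 12 CPM in the pair, 6.29 in replicate 2, 7.21 in replicate 3, 6.25 in replicate 5 and 12.3 in replicate 6, and the MET values 12.7 in the pair, 12.9 in replicate 2, 14.8 in replicate 4, 8.50 in replicate 5 and 7.42 in replicate 6. Each diet thus held calves below 9 CPM and others at about 12 or more. The log2 fold change was 0.30 (SE 0.23, edgeR FDR 0.494) over the 12 libraries and 0.34 (SE 0.26, FDR 0.535) over the 10 samples. Its coefficient of variation was 35.0% in CON and 28.0% in MET, against 14.3% and 16.3% for PSMB10. Although it shares the gene cluster on chromosome 23 with PSMB8, the difference between their fold changes was not tested.

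The PA28 caps were more abundant on average in MET without a call. PSME1 ranged from 98.4 CPM in CON replicate 2 to 162 in CON replicate 6, and from 118 in MET replicate 6 to 181 in the MET pair, and its log2 fold change was 0.33 (SE 0.16, edgeR FDR 0.253) over the 12 libraries and 0.27 (SE 0.18, FDR 0.459) over the 10 samples. PSME2 was at 86.9, 64.6, 65.4, 67.8 and 103 CPM in the CON pair and replicates 2, 3, 5 and 6, and at 103, 105, 108, 94.3 and 82.4 in the MET pair and replicates 2, 4, 5 and 6. For PSME2, 3 of the 5 MET samples were above every CON sample, and CON replicate 6 came close to the MET pair. The log2 fold change of PSME2 was 0.33 (SE 0.13, edgeR FDR 0.18) over the 12 libraries and 0.35 (SE 0.15, FDR 0.29) over the 10 samples, with an exact permutation p of 0.0635 over the 10 samples.

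The transporter genes showed no difference between the diets beyond the spread of the calves. TAP1 was at 25.2, 14.3, 19.1, 15.3 and 30.2 CPM in the CON pair and replicates 2, 3, 5 and 6, and at 27.2, 28.9, 23.7, 19.5 and 12 in the MET pair and replicates 2, 4, 5 and 6. The highest TAP1 value was in CON and the lowest in MET, and the log2 fold change was 0.10 (SE 0.22, edgeR FDR 0.842) over the 12 libraries and 0.09 (SE 0.26, FDR 0.889) over the 10 samples. TAP2 was between 6.70 and 8.82 CPM in the CON samples and between 7.81 and 9.38 in 4 MET samples, but 3.81 in MET replicate 6. Its log2 fold change was 0.02 (SE 0.19, edgeR FDR 0.963) over the 12 libraries and -0.06 (SE 0.21, FDR 0.909) over the 10 samples, so that its sign depended on how the pairs were counted. Between 37 and 103 reads per library lay behind the TAP2 values, and between 114 and 303 behind those of TAP1.

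TAPBP, the loading factor, had a log2 fold change of 0.25 (SE 0.14, edgeR FDR 0.325) over the 12 libraries and of 0.15 (SE 0.15, FDR 0.635) over the 10 samples, in which the MET pair counts once. It lay between 121 and 161 CPM in CON and between 132 and 153 in 4 MET samples, with the MET pair alone at 203. B2M, the light chain of all class I molecules, was at 833, 531, 479, 776 and 666 CPM in the CON pair and replicates 2, 3, 5 and 6, and at 1026, 791, 1329, 626 and 430.1 in the MET pair and replicates 2, 4, 5 and 6. The MET values thus enclosed all those of CON, and the log2 fold change of 0.34 (SE 0.24, edgeR FDR 0.444) over the 12 libraries, or 0.35 (SE 0.28, FDR 0.557) over the 10 samples, was within the spread. NLRC5 was between 6.36 and 12.2 CPM in CON and between 5.67 and 17.5 in MET, with a log2 fold change of 0.07 (SE 0.25, edgeR FDR 0.913) over the 12 libraries and 0.17 (SE 0.28, FDR 0.806) over the 10 samples. The first of these values turned negative in 3 fits with 1 library left out.

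**Figure D2:**
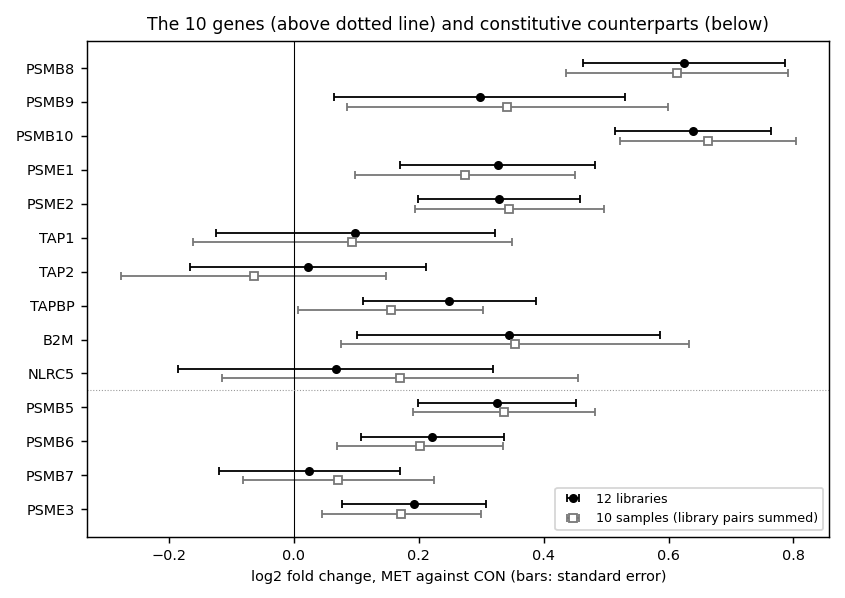
Log2 fold change of MET against CON (horizontal axis) with its standard error, from edgeR over the 12 libraries (filled circles) and the 10 samples (open squares). The 10 genes are above the dotted line. Below it are the constitutive catalytic subunits PSMB5, PSMB6 and PSMB7, and PSME3, a subunit of a separate cap. PSMB8 at 0.62 and PSMB10 at 0.64 stand farthest to the right, whereas TAP2 at 0.02 over the 12 libraries and -0.06 over the 10 samples lies on either side of 0.

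The calves differed across the whole group of genes. The MET pair was among the 3 highest samples for 9 of the 10 genes and the highest for 4, and MET replicate 4 was among the 3 highest for 7 and the highest for 3. CON replicates 2, 3 and 5 were each among the 3 lowest samples for 8 of 10 genes. MET replicate 6 did not follow the other MET samples, since it was the lowest of all samples for 4 genes (TAP1, TAP2, B2M and NLRC5), and CON replicate 6 was among the 3 highest for 5. The highest sample exceeded the lowest by 1.67-fold (TAPBP) to 3.09-fold (B2M), with a median of 2.41-fold, beside 1.99-fold for the 13170 tested genes above 0 in every sample.

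Each inducible subunit takes the place of a constitutive one, PSMB8 that of PSMB5, PSMB9 that of PSMB6 and PSMB10 that of PSMB7. None of the 3 constitutive genes passed the test. PSMB5 had a log2 fold change of 0.32 (SE 0.13, edgeR FDR 0.175), PSMB6 of 0.22 (SE 0.11, FDR 0.292) and PSMB7 of 0.02 (SE 0.14, FDR 0.947) over the 12 libraries. With 10 samples these were 0.34 (SE 0.15, edgeR FDR 0.285), 0.20 (SE 0.13, FDR 0.468) and 0.07 (SE 0.15, FDR 0.854). PSME3, which forms an activator cap without PSME1 and PSME2, had one of 0.19 (SE 0.12, edgeR FDR 0.366) over the 12 libraries and 0.17 (SE 0.13, FDR 0.525) over the 10 samples.

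Ratios of reads per kilobase were formed within each sample, which makes them independent of the scaling between libraries. Each inducible catalytic subunit was set against its constitutive counterpart. PSME1 and PSME2 were set against PSME3, which forms a separate cap and is not their constitutive counterpart. The ratio of PSMB10 to PSMB7 was 0.361 in the CON pair, 0.206 in replicate 2, 0.24 in replicate 3, 0.252 in replicate 5 and 0.313 in replicate 6, and in MET it was 0.621 in the pair, 0.482 in replicate 2, 0.363 in replicate 4, 0.381 in replicate 5 and 0.286 in replicate 6. In MET, 4 of the 5 samples were above all CON samples, the lowest of these 4 by a small margin. The geometric mean ratio was 0.269 in CON and 0.412 in MET, a log2 difference of 0.61 (SE 0.24) with an exact permutation p of 0.0397, which became 0.198 after Benjamini-Hochberg adjustment over the 5 ratios computed. PSMB8 to PSMB5 was 0.392 in CON and 0.479 in MET, with a log2 difference of 0.29 (SE 0.25) and an exact permutation p of 0.302 (adjusted 0.503). The other differences were 0.18 (SE 0.35) for PSMB9 to PSMB6, 0.11 (SE 0.19) for PSME1 to PSME3 and 0.20 (SE 0.18) for PSME2 to PSME3, with adjusted exact permutation p values of 0.651, 0.651 and 0.503. The log2 fold change of 0.62 for PSMB8 over the 12 libraries thus stood beside 0.32 for its counterpart, and that of 0.64 for PSMB10 beside 0.02.

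**Figure D3:**
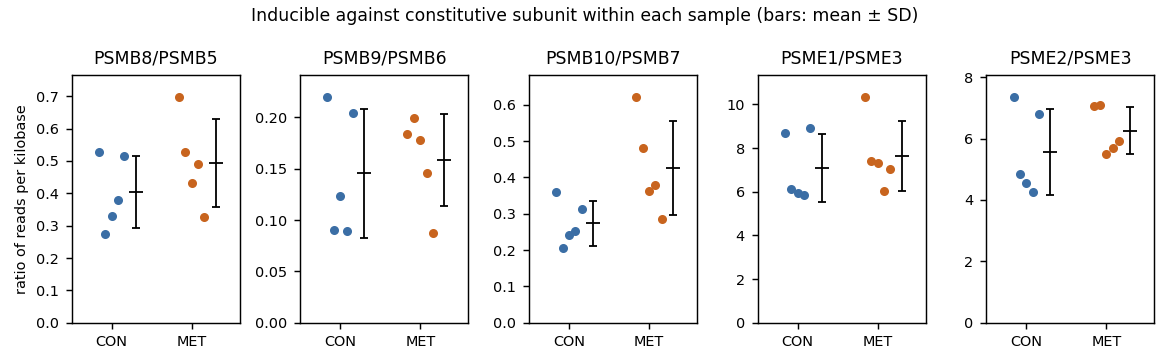
Ratio of reads per kilobase (vertical axes from 0) in 5 CON and 5 MET samples (points), with the mean ± SD. PSMB8, PSMB9 and PSMB10 are set against their constitutive counterparts, and PSME1 and PSME2 against PSME3, a subunit of a separate cap. For PSMB10 to PSMB7, the MET points run from 0.286 to 0.621 and the CON points from 0.206 to 0.361, and in the other panels the diets overlap more widely.

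The remainder of the proteasome was read from lists of genes outside the 10. Of 11 other core subunits, PSMB2, a non-catalytic beta subunit, was called (log2 fold change 0.47, SE 0.13, edgeR FDR 0.0858 over the 12 libraries and 0.181 over the 10 samples), with 55.7 to 80.5 CPM in CON and 85.1 to 134 in MET and no overlap. The PSMB2 call was kept in 2 of the 12 fits with 1 library left out. With the trend on gene length removed, its edgeR FDR was 0.172 over the 12 libraries and 0.276 over the 10 samples. DESeq2 called 5 of the 11 with 12 libraries, where its share of all genes called was above the 4.41% of edgeR. With 10 samples it called 2 of the 11, against 2.74% of all genes in that direction. In all, 11 of 11 had a log2 fold change above 0, 7 reached an edgeR p of at most 0.05 before adjustment, against 10.2% of all genes in that direction, and their median of 0.29 was close to the 0.31 of the 10 genes. The diets were fully separated, with MET above, for 4 of the 11, against 1.94% of all genes. They were PSMB2 and, chosen after their values were seen, PSMA5, PSMA6 and PSMB4. Of 8 activators, inhibitors and assembly factors, 0 were called by edgeR, against 4.41% of all genes, and 2 by DESeq2 over the 12 libraries, where its share was larger. By edgeR, 3 reached p of at most 0.05 before adjustment, against 20.5% of all genes, with a median of 0.24 (2 of 8 with 10 samples, against 16.3%). Among them, PSMG2, an assembly chaperone of the core, had a log2 fold change of 0.47 (SE 0.17, edgeR FDR 0.14). PSME4, which forms another cap, had one of -0.24 (SE 0.08, edgeR FDR 0.128), with every MET sample between 27.7 and 33.9 CPM and every CON sample between 34.7 and 38.2, but removal of the trend on gene length brought it to -0.11 over the 12 libraries (edgeR FDR 0.569). After removal of the trend on gene length over the 10 samples, the medians were 0.19 for the 10 genes, 0.21 for the other core subunits and 0.04 for the 3 constitutive catalytic subunits.

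Genes that act with the 10 in presentation gave no call by edgeR or voom at an FDR of at most 0.10. DESeq2 over the 12 libraries called 1, in the list of peptide trimming and loading. There it called a larger share of all genes than the 4.41% of edgeR. Of 8 class I heavy chains and other partners of B2M, 6 were tested, 2 reached p of at most 0.05 before adjustment, against 20.5% of all genes, and the median log2 fold change was 0.14 (1 of 6 and 0.18 with 10 samples). BOLA, a class I heavy chain gene, was at 466 to 708 CPM in CON and at 535 to 1296 in MET, where the pair and replicate 4 were at 1111 and 1296 and the other 3 were within the CON range (log2 fold change 0.52, SE 0.24, edgeR FDR 0.235). Reads that match several of the near-identical class I genes were left out by the counting, so that these levels are uncertain. HFE, a class I-like regulator of iron uptake that pairs with B2M, had a log2 fold change of -0.59 (SE 0.27, edgeR FDR 0.233). The 6 genes of peptide trimming and loading had a median of 0.23, with 2 at an unadjusted p of at most 0.05 (0.20 and 1 with 10 samples). They were TAPBPL, a tapasin-related peptide editor (0.31, SE 0.10, edgeR FDR 0.124), and PDIA3, a thiol oxidoreductase of the loading complex (0.44, SE 0.20, edgeR FDR 0.233).

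Class II genes, which present peptides in macrophages, dendritic cells and B cells, were tested for 9 of 14 members, with 3 at an edgeR p of at most 0.05 before adjustment, all more abundant in MET, against 10.2% of all genes in that direction. With 10 samples 2 of the 9 were, against 7.83%. The median log2 fold change was 0.33 over the 12 libraries and 0.43 over the 10 samples. CD74, the invariant chain, was at 188 to 298 CPM in CON and at 325, 404, 205, 321 and 407 in the MET pair and replicates 2, 4, 5 and 6, so that 4 of 5 MET samples were above all CON samples (log2 fold change 0.42, SE 0.16, edgeR FDR 0.166). BOLA-DMA, a subunit of the class II peptide exchanger, had a log2 fold change of 0.45 (SE 0.20, edgeR FDR 0.229). MET replicate 6, the lowest sample for B2M, was the highest for CD74, and MET replicate 4, the highest for B2M, was the lowest MET sample for CD74.

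Of the summed markers of liver cell types, only those of macrophages and Kupffer cells were without overlap between the diets. The summed level of 9 macrophage and Kupffer cell markers was between 1434 and 1894 CPM in CON and between 1949 and 2196 in MET, without overlap, and 3 of the 9 (CD14, C1QB and C1QC) were more abundant in MET at an FDR of at most 0.10 by edgeR over the 12 libraries, beside 2.09% of all genes. None of the 9 was at 0. Over the 10 samples edgeR called 0 of 9, with 4 at p of at most 0.05 before adjustment, against 7.83% of all genes in that direction. DESeq2 over the 10 samples called the same 3 markers, against 2.74% of all genes as more abundant in MET. With the trend on gene length removed over the 12 libraries, the edgeR FDR of C1QB and C1QC was 0.131 and that of CD14 0.0858. The sum of 5 pan-leukocyte markers overlapped between the diets (75.5 to 109.9 CPM in CON and 85.8 to 132 in MET). Of the 5, RAC2 alone was called by edgeR over the 12 libraries, as more abundant in MET, beside 2.09% of all genes. The 7 T and NK cell markers summed to 17.4 to 26.9 CPM in CON and 16.6 to 33.2 in MET, and 4 B cell markers to 1.89 to 6.54 and 2.93 to 6.38, with 3 of the 4 below a mean of 1 CPM. The 3 neutrophil markers tested summed to 12.2 to 45.5 CPM in CON and 13.3 to 142.5 in MET, the highest in MET replicate 4. Endothelial, stellate, erythroid and cholangiocyte sums overlapped between the diets, the erythroid one over a wide range (8.76 to 1084 CPM in CON and 65.7 to 590.3 in MET). The tissue was liver by its 7 hepatocyte markers, which summed to 93889 to 141255 CPM in CON and 78591 to 113945 in MET. Of these, APOB alone was called by edgeR over the 12 libraries, as less abundant in MET, beside 4.41% of all genes in either direction. The APOB call was kept in 1 of the 12 fits with 1 library left out. With the trend on gene length removed over the 12 libraries, its edgeR FDR was 0.374. DESeq2 over the 10 samples called both ALB and APOB as less abundant, beside 5.71% of all genes in either direction. MET replicate 6 had the highest macrophage sum of all samples. It was the lowest sample for TAP1, TAP2, B2M and NLRC5, within the CON range for PSMB8 (39.2 CPM) and above every CON sample for PSMB10 (33.5 CPM). The part of these cell types in the PSMB8 and PSMB10 differences was not tested.

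**Figure D4:**
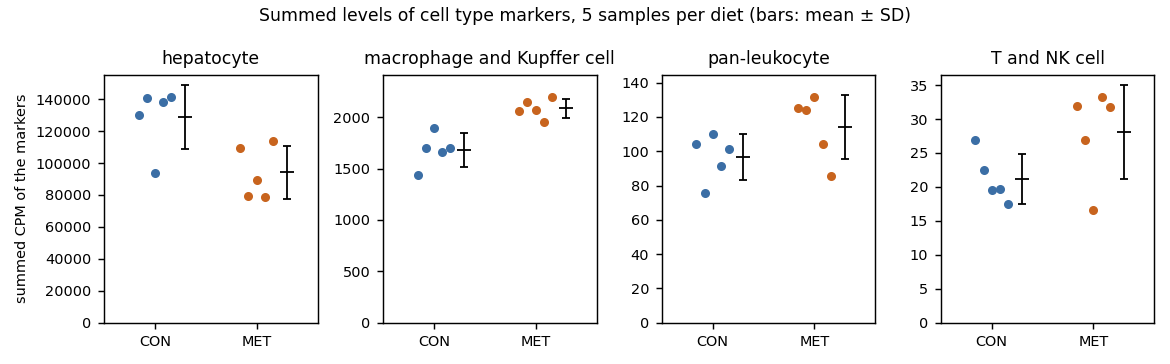
Summed CPM of marker genes of 4 cell types (vertical axes from 0) in 5 CON and 5 MET samples (points), with the mean ± SD. The macrophage and Kupffer cell sums are 1434 to 1894 CPM in CON and 1949 to 2196 in MET, whereas the diets overlap in the other panels.

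Interferon induces most of the 10 genes, and its other targets were compared next. Of 22 interferon signalling and class I regulators tested out of 23, 0 were called by edgeR at an FDR of at most 0.10, against 4.41% of all genes. DESeq2 over the 12 libraries called 1 of them, and its share of all genes there was above 4.41%. By edgeR, 1 reached p of at most 0.05 before adjustment, against 20.5%, with a median log2 fold change of -0.04. That gene was RFXANK, a subunit of the complex that binds class I and class II promoters (0.31, SE 0.10, edgeR FDR 0.123), and JAK2, a kinase of the interferon gamma receptor, followed at -0.30 (SE 0.15, edgeR FDR 0.258). Of 19 interferon-stimulated genes tested out of 22, 0 were called and 0 reached an edgeR p of at most 0.05 before adjustment (DESeq2 and voom also called 0), against 4.41% and 20.5% of all genes, with 8 log2 fold changes above 0, 11 below and a median of -0.24 (-0.14 with 10 samples). The direction depended on the measure, since the difference of mean log2 CPM (MET minus CON), computed after the values had been seen, was above 0 for 11 of the 19 with 12 libraries and for 13 with 10 samples, with medians of 0.08 and 0.10. The 2 with the lowest p were RSAD2, an antiviral enzyme (-0.84, SE 0.67, edgeR FDR 0.504), and CXCL9, a chemokine induced by interferon gamma (0.49, SE 0.40, edgeR FDR 0.505).

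These genes differed far more among calves than between diets. Their highest sample exceeded their lowest by a median of 25.2-fold and by up to 137-fold, against a median of 2.41-fold for the 10 genes. ISG15, a ubiquitin-like modifier chosen here after its values were seen, was at 401, 12.4, 23.9, 41.8 and 589 CPM in the CON pair and replicates 2, 3, 5 and 6, and at 656, 97.3, 363, 270.4 and 14.4 in the MET pair and replicates 2, 4, 5 and 6. Both diets therefore held calves with low and with high levels.

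The mean log2 CPM of the 19 interferon-stimulated genes, 4.33 ± 1.62 in CON and 4.51 ± 1.39 in MET (SD, n = 5), was set against each of the 10 genes over the 10 samples. The 10 relations were computed after the values had been seen, and their p values are unadjusted. Before any adjustment for diet, TAP1 followed it most closely (Pearson's r = 0.881, permutation p = 0.00108, Spearman's rho = 0.855, permutation p = 0.00306), with r = 0.720 when the 2 samples farthest from the median, CON replicate 2 and MET replicate 6, were left out. PSMB9 gave r = 0.800 (permutation p = 0.00923) and rho = 0.624 (permutation p = 0.0605), with r = 0.741 without those samples. PSME1 gave r = 0.745 (permutation p = 0.0161) and rho = 0.770 (permutation p = 0.0127), also with r = 0.741 without them. For PSMB8, r was 0.655 (permutation p = 0.0413) and rho 0.600 (permutation p = 0.073), with r = 0.605 without the 2 samples. PSMB10 had the lowest value of the 10 there, with r = 0.340 (permutation p = 0.329), rho = 0.273 (permutation p = 0.447) and r = 0.301 without them. The remaining 5 genes had r between 0.379 (TAPBP) and 0.727 (PSME2), and without the 2 samples the values were 0.433 for B2M, 0.347 for NLRC5, 0.309 for TAP2, 0.647 for TAPBP and 0.746 for PSME2. With 5 samples in a diet, no correlation is given for either diet alone. After subtraction of each diet's mean, r over the 10 samples was 0.903 for PSMB8, 0.896 for PSME2, 0.880 for TAP1, 0.847 for PSMB9, 0.808 for PSME1 and 0.547 for PSMB10, so that the value of PSMB8 was then the highest of the 10. Those of B2M, NLRC5, TAP2 and TAPBP were 0.698, 0.657, 0.569 and 0.379. Among all genes tested, without that subtraction, 99.3% had a lower r than TAP1, 98.5% than PSMB9, 95.4% than PSMB8 and 78.2% than PSMB10. The difference between these correlations was not tested.

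**Figure D5:**
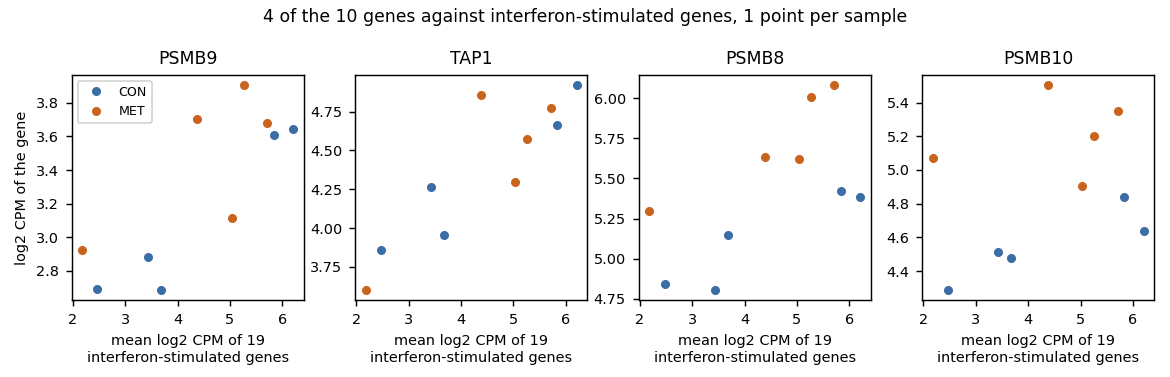
Log2 CPM of PSMB9, TAP1, PSMB8 and PSMB10 (vertical axes) against the mean log2 CPM of 19 interferon-stimulated genes (horizontal axes), 1 point per sample and coloured by diet. Over all 10 points r is 0.881 for TAP1, 0.800 for PSMB9, 0.655 for PSMB8 and 0.340 for PSMB10, and every MET point of PSMB10 lies above its CON points.

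The genes most like the inducible subunits were sought by the correlation of log2 CPM with the mean of PSMB8, PSMB9 and PSMB10 over the 10 samples, after subtraction of each diet's mean. Among the other 7 of the 10 genes, r was 0.898 for TAP1, 0.897 for PSME2, 0.846 for PSME1, 0.787 for B2M, 0.700 for NLRC5, 0.424 for TAP2 and 0.389 for TAPBP. The 8 highest values outside the 10 belonged to SINHCAF (0.986), TRUB1 (0.967), CLPX (0.946), PACC1 (0.940), ATXN3 (0.928), DIDO1 (0.922), GOLGA7 (0.921) and AKAP7 (0.917). They are the highest among all genes tested, from 10 points each, are given as a description, and had log2 fold changes between -0.44 and 0.18 with no call by edgeR.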

How the data were processed

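The 10 genes and the gene lists were chosen with earlier results of these data known. The authors read 1 lane for 101 cycles, mapped them with STAR 2.5.3a on UMD 3.1.1, a bovine assembly, and assigned them to RefSeq genes with featureCounts (Subread 1.5.2). The authors deposited raw read counts for every gene and library, by Entrez gene ID, without normalization. The counting was stranded and left out reads that matched several places or genes. Exon coordinates and gene lengths came from the same files. Of 30336 IDs, 25105 were named by the RefSeq gene table.

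The default filter of edgeR was applied (minimum count 10, minimum total 15), which left 13212 of the 21227 with a read, or 13242 when library pairs were summed. The diets were compared with edgeR 4.0.16 in R 4.3.3 (TMM, quasi-likelihood test without robust estimation, Benjamini-Hochberg adjustment over all genes tested, FDR at most 0.10). Log2 CPM used a prior count of 2, and 0.5 reads were added to counts in ratios. Exact two-sided permutation tests ran over the 252 arrangements of the 10 samples or 924 of the 12 libraries, and correlations over samples used 100000 permutations. A floor of 3 reads equals 0.289 to 0.362 CPM and, without molecular identifiers, covers the error of counting alone. The chi-square per gene was at least 23.3 for the 64 other library pairs. The labels list every library as a sample of its own, and p values over the 12 libraries count the near-identical ones as separate calves.

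Alternatives covered the normalization, the filter, DESeq2 1.42.0, voom of limma 3.58.1, robust estimation, a trend on log2 gene length (span 0.5), a block by replicate number and each library left out. The edgeR test and the permutation tests were tried on simulated data without near-identical library pairs. The removal of the length trend was not. Genes named outside the 10 were PSMB5, PSMB6, PSMB7, PSME3, in each list those with an FDR of at most 0.10 or otherwise the 2 with the lowest p, and the 8 most correlated genes. Any further gene was named with its values known. No sequence was used here.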

Additional observations from a re-analysis of the deposited data

Results flagged for a closer look

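TAP2 in MET replicate 6 was flagged because this sample lay far from the others of its diet. It was at 3.81 CPM, and the other 4 MET samples were between 7.81 and 9.38. The gap took 0.717 of the range, above Dixon's limit of 0.71 for 5 samples. In all, 30 groups of 5 samples were examined and 1 was flagged, and chance alone flags about 1 group in 20. Without this sample the difference of mean log2 CPM for TAP2 was 0.094 with an exact permutation p of 0.349.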

How the results depend on the processing

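For the 10 genes, 219 of 250 log2 fold changes under the 25 alternatives kept direction and side of the threshold, 18 lost a call (14 of PSMB8 and 4 of PSMB10, whose signs held throughout) and 13 changed sign. The genes called over the 12 libraries numbered 583 (276 more and 307 less abundant in MET), of which 2 were among the 10 and 1 in the pathway lists. With each pair summed, with the length trend also removed, or with 1 library of each pair kept (chosen after seeing the data), these counts were 0 in either direction, and 0 and 0. Fewer samples entered these fits. Scaling by library size only gave 107 (71 and 36), 1 of the 10 and 0 in the lists, no filter gave 238 (122 and 116), 2 and 0, and the length trend removed over the 12 libraries gave 245 (126 and 119), 1 and 0. DESeq2 gave 1314 (633 and 681) over the 12 libraries, with 2 and 9, and over the 10 samples 2 and 2. Leaving out 1 library gave 26 to 565 genes (11 to 273 and 15 to 292), 1 to 2 of the 10 and 0 to 2 in the lists, with the lowest count of 26 without CON replicate 1 and 35 without CON replicate 4. The cause of these differences was not tested. The log2 fold change of TAP2 turned to -0.064 with pairs summed by edgeR, also with the length trend removed, to -0.060 by DESeq2, to -0.025 with voom, -0.012 with the replicate block and -0.10 with 1 library of each pair kept, and it ranged from -0.053 to 0.16 with 1 library left out (-0.0026 and -0.025 without CON replicates 1 and 4, -0.019 and -0.053 without MET replicates 1 and 3). NLRC5 ranged from -0.16 to 0.18 (-0.013, -0.028 and -0.16 without CON replicate 2, CON replicate 5 and MET replicate 2). With 1 sample left out, the difference of mean log2 CPM ranged from -0.031 to 0.29 for TAP1 (-0.031, -0.0071 and -0.022 without CON replicates 2 and 5 and MET replicate 2), from -0.22 to 0.094 for TAP2 (positive without MET replicate 6) and from -0.070 to 0.33 for NLRC5 (-0.070 without MET replicate 2), and 1 to 2 of the 10 genes separated the diets. The log2 difference of PSMB10 to PSMB7 ranged from 0.47 to 0.75, with an adjusted exact permutation p of 0.0794 without MET replicate 6, and that of PSME1 to PSME3 from -0.0092 to 0.19, negative without the MET pair.

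Samples of the 2 diets with the same replicate number share only the number. Their deviations correlated between -0.19 and 0.148, and 0 of 6 correlated best with their own number. The replicate block left 6 genes called (0 more and 6 less abundant in MET), 0 of the 10 and 0 in the lists, and the block gave PSMB10 to PSMB7 a log2 difference of 0.64 with an adjusted exact p of 0.469 over the 6 pairings. No GC correction was run. Reads per library limit TAP2, PSMB9 and NLRC5 most, with fewest reads of 37, 50 and 54.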
